A study of Arabidopsis thaliana with 18 samples.

Results

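The genes described are 10 genes of the wax and cutin pathways of the Arabidopsis leaf surface, chosen by name from 32678 genes in the count table: CER1 (AT1G02205), CER2 (AT4G24510), CER3 (AT5G57800), CER4 (AT4G33790), CER5 (AT1G51500), CER6 (AT1G68530), KCS1 (AT1G01120), FDH (AT2G26250), LACS2 (AT1G49430) and MAH1 (AT1G57750). Poly(A) RNA of leaves was sequenced in 18 libraries, 3 in each of 6 groups. The groups were Col-0 wild type and the 35S:RPS4-HS line (35S:RPS4 for short), both grown at 28 °C for 3.5 weeks and taken unshifted (0 h) or once they had spent 4 h or 8 h at 19 °C. 35S:RPS4-HS is a transgenic line in the Col-0 background that carries RPS4, an intracellular immune receptor of the TNL class, under the 35S promoter, which is active in most plant cells. No pathogen was applied, and Col-0 went through the same shift as the control for the change of temperature. No group was kept at 28 °C for 4 h or 8 h. In changes from 0 h within a line, the shift and the time of day therefore cannot be told apart. The line is 1 transgenic line, and the labels do not say whether the libraries came from separate plants or pools, so p-values measure the spread between these libraries, which may be technical.

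Aerial plant surfaces are sealed by the cuticle, a polyester called cutin that is filled and covered with waxes. In epidermal cells, fatty acids are lengthened to very long chains by ketoacyl-CoA synthases, the enzymes that set chain length, and then pass either to alkanes and their oxidised products or to primary alcohols and esters. Transporters of the ABC family and lipid transfer proteins move the products to the surface, and the cuticle limits water loss and the entry of microbes.

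Depth ran from 23876651 to 36291942 gene counts a library. At that depth 3 counts, the floor used below, amounted to 0.0845 to 0.15 CPM (counts scaled to library size), and floors and intervals cover counting error only. RPS4 itself was at 12.2 to 20.1 CPM in the 9 libraries labelled Col-0 and at 665 to 2604 CPM in the 9 labelled 35S:RPS4, so the labels held. Levels are given as CPM, in the order of replicates 1, 2 and 3, or as mean ± SD with n = 3. Log2 fold changes (log2FC) are given ± SE. Changed, or called, means an absolute log2FC above 1 together with an adjusted p (Benjamini-Hochberg, over 20023 genes) under 0.01 in edgeR's quasi-likelihood test. Of the 10 genes, 9 passed the filter on low counts and were tested.

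In the TAIR10.1 annotation (the RefSeq release of TAIR10) the genes lie on chromosomes 1, 2, 4 and 5. CER1 is at chr1:418416-422579, CER5 at chr1:19097712-19101265, CER6 at chr1:25712414-25715024 and FDH at chr2:11170416-11173278. No stretch of 50 exonic bases of any of the 10 genes was found elsewhere in the genome. CER2, at chr4:12660687-12662656, overlaps 2 genes on the opposite strand over 412 bp, and the strand setting of the counting is not given in the sources used here, so that reads of CER2 and of these neighbours may not be told apart. The 300 bases before the annotated start are shown for FDH and CER5, whose levels went most alike over the libraries among those printed, for CER1, which fell far in both lines, and for CER6, whose course differed most from theirs. They read 5′ to 3′ on the gene's strand, and capitals mark 2 motifs, searched on both strands. These were TAAATGNA, a form of the L1 box known from promoters of epidermal genes, and ACCNAAC, an element bound by MYB factors.
FDH, chr2:11173279-11173578, minus strand: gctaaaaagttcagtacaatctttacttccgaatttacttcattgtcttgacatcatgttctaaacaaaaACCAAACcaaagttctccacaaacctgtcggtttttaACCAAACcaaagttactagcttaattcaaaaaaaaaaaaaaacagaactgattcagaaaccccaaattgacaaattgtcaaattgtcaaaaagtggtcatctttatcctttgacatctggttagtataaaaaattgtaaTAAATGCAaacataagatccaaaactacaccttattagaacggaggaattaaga
CER5, chr1:19101266-19101565, minus strand: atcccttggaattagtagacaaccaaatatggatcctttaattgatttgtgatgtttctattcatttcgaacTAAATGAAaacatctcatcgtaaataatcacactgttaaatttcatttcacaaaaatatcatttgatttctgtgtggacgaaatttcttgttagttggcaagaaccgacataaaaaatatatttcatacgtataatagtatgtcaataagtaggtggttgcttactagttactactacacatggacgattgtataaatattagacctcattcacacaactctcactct
CER1, chr1:418116-418415, plus strand: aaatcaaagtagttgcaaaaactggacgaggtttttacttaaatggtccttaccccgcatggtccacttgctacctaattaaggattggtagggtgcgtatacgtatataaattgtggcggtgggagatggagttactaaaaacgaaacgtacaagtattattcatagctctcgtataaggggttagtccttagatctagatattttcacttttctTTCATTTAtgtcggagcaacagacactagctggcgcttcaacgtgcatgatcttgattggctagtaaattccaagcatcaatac
CER6, chr1:25715025-25715324, minus strand: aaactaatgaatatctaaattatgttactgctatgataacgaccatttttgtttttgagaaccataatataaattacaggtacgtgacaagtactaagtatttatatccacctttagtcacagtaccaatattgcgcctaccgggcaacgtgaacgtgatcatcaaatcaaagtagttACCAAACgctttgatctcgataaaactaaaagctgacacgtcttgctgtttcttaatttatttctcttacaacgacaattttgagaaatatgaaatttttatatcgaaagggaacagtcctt

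TAAATGNA stood in 3 of the 10 start regions (FDH, CER5 and CER1), and in 11.8% of 27443 start regions of the same length across the genome. Its distance from the start was 54 bases in FDH, 228 bases in CER5 and 84 bases in CER1. In FDH it read TAAATGCA, a form held by 1.90% of all start regions. ACCNAAC stood in 4 regions (CER2, CER6, LACS2 and, at 2 places, FDH), against 16.8% of all. The core of the W box of WRKY factors, TTGAC, stood in CER3, CER4, CER5 and FDH, against 50.4% of all. The GCC box GCCGCC and CGCGT, a longer form of the CAMTA core, stood in 0 of the 10 regions, against 2.26% and 7.89% of all. The paper gives the core bound by CAMTA transcription factors as CGyG (y for C or T), which was not searched for. CGTG, a form of that core, can be read in the printed windows of CER6 and CER1. A match is a description of the letters in these windows only, and the windows hold no overlap between the 2 marked motifs.

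Before the shift the wax and cutin genes stood at like levels in both lines. Summed over the 10 genes, the level was 1325 ± 179 CPM in the wild type and 1328 ± 210 CPM in 35S:RPS4. The genes called between the lines at 0 h were 0 of the 9 tested (0.00999% of all tested genes were called), the lowest unadjusted p among the 9 being 0.15, and DESeq2 and limma voom called 0 as well. The libraries of the lines overlapped for each of the 9. Log2FC ran from -0.34 ± 0.31 (CER1) to 0.35 ± 0.24 (CER5), with a median of -0.10 beside 0.00 over all genes. Over all genes, edgeR called 2 at 0 h, limma voom 1 and DESeq2 75, and 1923 had an unadjusted p under 0.05.

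Per length of exon, the genes differed widely in level in unshifted Col-0 leaves. CER6 was the highest at 145 ± 33.1 RPKM (CPM divided by exon length in kilobases) and its libraries, at 112 to 178 RPKM, lay above those of all others. FDH (82.2 ± 20.2 RPKM), CER5 (69.9 ± 14.4 RPKM), CER3 (62.2 ± 12.4 RPKM), KCS1 (54.8 ± 12.7 RPKM), CER1 (47.6 ± 15.4 RPKM) and CER2 (41.1 ± 9.25 RPKM) followed, and each overlapped its neighbour in this order. LACS2 (13.9 ± 4.66 RPKM) and CER4 (13.6 ± 12.1 RPKM) overlapped with each other and lay below the rest. MAH1 was near 0. At 8 h in 35S:RPS4, CER6 was still the highest at 9.83 ± 1.26 RPKM, above FDH (4.05 ± 0.196 RPKM), CER2 (4.01 ± 0.895 RPKM) and CER5 (3.68 ± 0.324 RPKM), which overlapped.

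**Figure D1:**
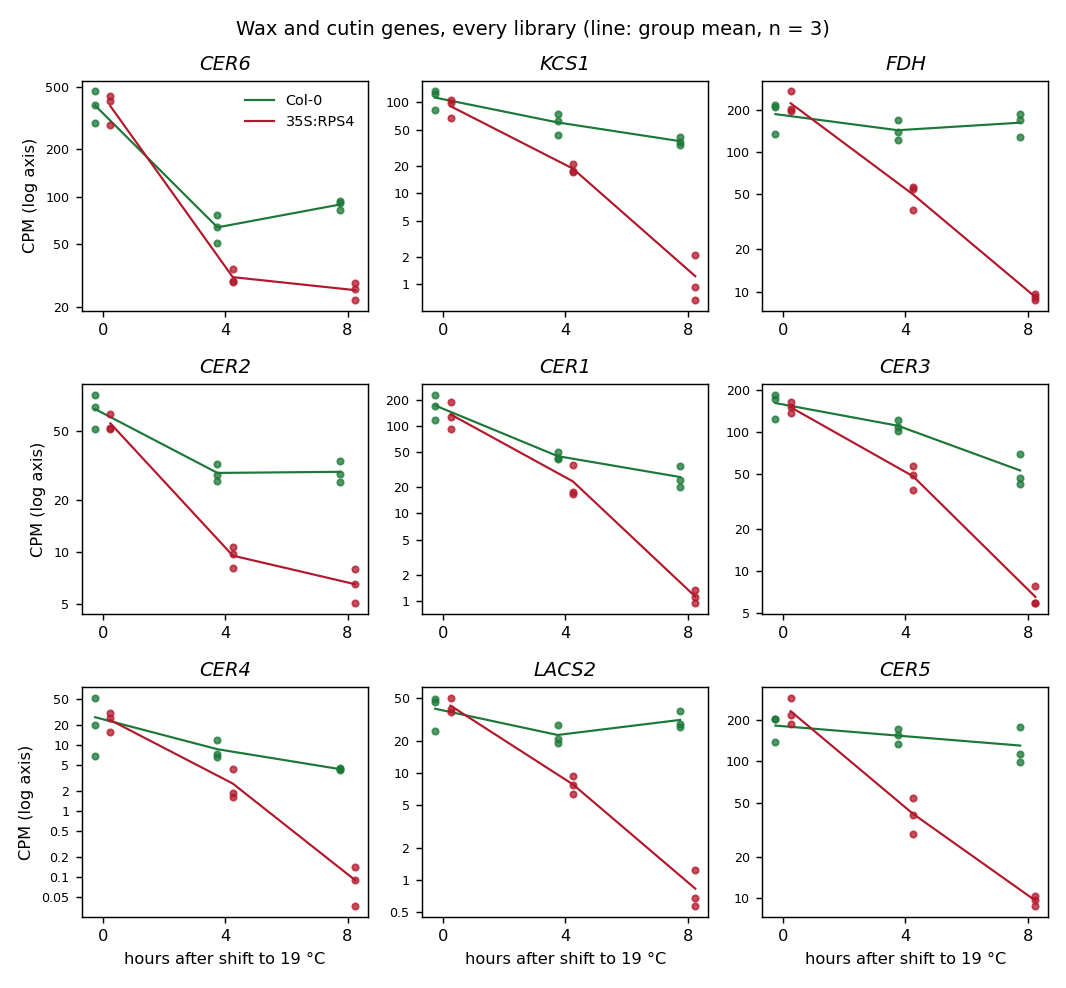
Level in CPM (log axis) of the 9 tested wax and cutin genes in every library against hours after the shift to 19 °C, Col-0 in green and 35S:RPS4 in red, with lines through the group means (n = 3). At 0 h the lines overlap for each gene, and at 4 h and 8 h every 35S:RPS4 library lies below every Col-0 library. MAH1, near 0 throughout, is not drawn.

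CER6 (also KCS6), the main ketoacyl-CoA synthase of wax production in shoots, fell in both lines within 4 h. In Col-0 it stood at 292, 381 and 465 CPM at 0 h, at 51.3, 64.2 and 76.8 CPM at 4 h and at 82.3, 91.7 and 94.5 CPM at 8 h. In 35S:RPS4 it stood at 439, 403 and 286 CPM, then at 35.0, 29.2 and 28.8 CPM, and at 8 h at 22.2, 28.7 and 26.1 CPM. Shifted and unshifted libraries did not overlap in either line, and after the shift the 35S:RPS4 libraries were below those of Col-0. CER6 changed by -2.56 ± 0.20 in Col-0 at 4 h (adjusted p = 2.48e-07, edgeR) and by -3.60 ± 0.21 in 35S:RPS4 (adjusted p = 3.4e-10). Between the lines it was lower by -1.05 ± 0.19 at 4 h and -1.80 ± 0.20 at 8 h, the smallest difference of the 9 genes at 8 h. The call at 4 h lay near the fold threshold, with -0.90 without Col-0 4 h replicate 3 and -0.998 without 35S:RPS4 4 h replicate 3.

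KCS1, a further ketoacyl-CoA synthase of wax chains, and FDH (FIDDLEHEAD, also KCS10), a synthase needed to keep organ surfaces from fusing, behaved differently in Col-0. KCS1 was at 82.7, 131 and 123 CPM in Col-0 at 0 h, at 43.5, 63.0 and 73.6 CPM at 4 h and at 41.5, 34.3 and 36.4 CPM at 8 h. The 35S:RPS4 libraries of KCS1 were at 105, 99.4 and 67.6 CPM, at 17.7, 21.2 and 17 CPM, and at 0.672, 0.930 and 2.09 CPM. KCS1 fell in both lines, by -1.59 ± 0.27 in Col-0 and by -6.18 ± 0.35 in 35S:RPS4 at 8 h, and was lower in 35S:RPS4 than in Col-0 by -1.68 ± 0.28 at 4 h and -4.91 ± 0.34 at 8 h, a 30.03-fold difference. FDH stayed at 121 to 215 CPM in all Col-0 libraries, with changes of -0.38 ± 0.21 at 4 h and -0.20 ± 0.21 at 8 h that did not pass the test and libraries that overlapped. In 35S:RPS4 it went from 269, 201 and 195 CPM to 55.9, 54.4 and 38.0 CPM at 4 h and to 8.69, 9.16 and 9.57 CPM at 8 h. FDH was thus 17.6-fold lower in 35S:RPS4 than in Col-0 at 8 h (log2FC -4.14 ± 0.24, adjusted p = 9.19e-11, edgeR).

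CER2 encodes a protein of the BAHD family that acts with CER6 in reaching the longest chains. Its levels in Col-0 were 51.1, 81.1 and 68.4 CPM at 0 h, 32.4, 27.7 and 25.7 CPM at 4 h and 25.3, 33.5 and 28.3 CPM at 8 h. Those in 35S:RPS4 were 51.4, 62.2 and 52.2 CPM, then 10.7, 9.78 and 8.08 CPM, and at 8 h 5.06, 7.97 and 6.52 CPM. The lines were apart after the shift, with 35S:RPS4 lower by -1.59 ± 0.19 at 4 h and -2.15 ± 0.20 at 8 h. CER2 and CER6 were the tested members whose difference between the lines did not change by enough to be called from 4 h to 8 h, at -0.56 ± 0.27 (adjusted p = 0.085) and -0.75 ± 0.27 (adjusted p = 0.0272).

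CER1 and CER3 act together in turning very long chain acyl-CoA into alkanes, the most abundant waxes of the Arabidopsis shoot. CER1 was at 228, 117 and 167 CPM in Col-0 at 0 h, at 43.2, 50.4 and 41.9 CPM at 4 h and at 34.4, 19.9 and 23.9 CPM at 8 h. The transgenic line had CER1 at 127, 187 and 93.0 CPM, at 35.5, 17.5 and 16.7 CPM, and at 0.941, 1.32 and 1.1 CPM. CER1 thus fell in Col-0 too, by -1.92 ± 0.32 at 4 h and -2.71 ± 0.33 at 8 h, and the 35S:RPS4 libraries lay below the Col-0 ones at both times. At 4 h 35S:RPS4 differed from Col-0 by -0.96 ± 0.31 (adjusted p = 0.0161), which was not called, and at 8 h by -4.51 ± 0.39, a 22.9-fold difference. Without 35S:RPS4 4 h replicate 1, the highest of its group, the value at 4 h was -1.40 (adjusted p = 0.00133). CER3 was at 173, 125 and 185 CPM in Col-0 at 0 h, at 122, 109 and 102 CPM at 4 h and at 69.7, 42.4 and 46.6 CPM at 8 h. Levels of CER3 in 35S:RPS4 were 163, 136 and 151 CPM, at 57.0, 49.3 and 38.1 CPM, and at 5.91, 5.97 and 7.80 CPM. CER3 was lower in 35S:RPS4 by -1.20 ± 0.20 at 4 h and -3.01 ± 0.22 at 8 h, and in Col-0 it was called only at 8 h (-1.61 ± 0.20).

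CER4, a fatty acyl-CoA reductase that makes primary alcohols, had the largest SE of the 9 tested genes in every comparison. Its levels in Col-0 at 0 h were 52.9, 6.88 and 20.2 CPM, which span the 16.1, 25.7 and 30.6 CPM of 35S:RPS4 at 0 h. At 4 h it stood at 7.41, 12.1 and 6.61 CPM in Col-0 and at 4.30, 1.64 and 1.90 CPM in 35S:RPS4, and at 8 h at 4.18, 4.31 and 4.52 CPM in Col-0. In 35S:RPS4 at 8 h the libraries held 2, 5 and 1 counts of CER4, under the floor of 3 counts in 2 of the 3. For CER4, 35S:RPS4 differed from Col-0 by -1.75 ± 0.55 at 4 h (adjusted p = 0.0134), not called, and by -5.49 ± 0.84 at 8 h (adjusted p = 1.46e-05, edgeR). MAH1, the alkane hydroxylase that makes secondary alcohols and ketones and is known from stems, had at most 6 counts in any group (6 in 35S:RPS4 and 2 in Col-0 at 0 h, 4 in Col-0 at 4 h) and 0 in the other 3 groups. It failed the filter, and no difference was detectable at this depth.

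CER5 (also ABCG12), an ABC transporter of the plasma membrane that exports wax, stayed near its starting level in Col-0. It was at 205, 139 and 204 CPM in Col-0 at 0 h, at 133, 174 and 156 CPM at 4 h and at 179, 114 and 98.9 CPM at 8 h, and these groups overlapped. In 35S:RPS4 it went from 292, 218 and 187 CPM to 40.7, 53.8 and 29.6 CPM and to 8.74, 9.69 and 10.4 CPM. CER5 was lower in 35S:RPS4 by -1.90 ± 0.25 at 4 h, the largest difference of the 9 genes at that time, and by -3.76 ± 0.27 at 8 h (adjusted p = 1.7e-09, edgeR).

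LACS2, a long-chain acyl-CoA synthetase that activates fatty acids for cutin, was lower in 35S:RPS4 after the shift at both times. In Col-0 it was at 48.8, 24.5 and 46.3 CPM at 0 h, at 18.9, 28.2 and 20.8 CPM at 4 h and at 38.0, 27.0 and 29.0 CPM at 8 h. The 35S:RPS4 libraries of LACS2 were at 50.7, 39.8 and 37.4 CPM, at 9.30, 7.74 and 6.38 CPM, and at 0.672, 0.564 and 1.24 CPM. In Col-0 its shifted and unshifted libraries overlapped, with changes of -0.81 ± 0.26 at 4 h and -0.35 ± 0.26 at 8 h that were not called. Without Col-0 0 h replicate 2, the lowest of its group, the change at 4 h was -1.07 (adjusted p = 0.00433, edgeR) and was called. In 35S:RPS4 the shifted and unshifted libraries were far apart. LACS2 was lower in 35S:RPS4 by -1.54 ± 0.27 at 4 h and by -5.25 ± 0.34 at 8 h, a 38.0-fold difference.

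Over the 9 tested genes, 7 were lower in 35S:RPS4 at 4 h (12.4% of all tested genes were lower) and 9 at 8 h (30.1% of all tested genes), and 0 were higher (16.6% and 26.6% of all tested genes). Their median log2FC was -1.54 at 4 h and -4.14 at 8 h, beside -0.01 and -0.10 over all tested genes. The libraries of the lines did not overlap for any of the 9 at either time. The share of all tested genes without overlap was not computed. Differences were widespread, with 11392 of 20023 genes at an unadjusted p under 0.05 (edgeR) at 4 h and 15853 at 8 h. At 4 h, scaling by the library total alone moved the median of all genes to -0.43 and the share called lower to 21.2%, and all 9 were then called lower. At 8 h the 10 genes summed to 562 ± 88.7 CPM in the wild type and to 60.8 ± 6.78 CPM in the transgenic line. Since whole leaves were used, fewer epidermal cells and less RNA of these genes per cell cannot be told apart.

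Some of the genes fell in Col-0 as well. There, 3 of the 9 fell at 4 h (4.79% of all tested genes fell), CER1, CER2 and CER6, and 6 fell at 8 h (11.8% of all tested genes), with CER3, CER4 and KCS1 added, the call of CER4 being lost with only the groups compared (adjusted p = 0.0118). The other 3, CER5, FDH and LACS2, gave log2FC from -0.48 to -0.20 at 8 h and did not pass the test. Both comparisons use the same 0 h libraries. Without Col-0 0 h replicate 2, which held the lowest CER4 and LACS2 levels of its group, 5 of the 9 were called at 4 h. In 35S:RPS4 all 9 tested genes fell at 4 h (14.8% of all tested genes) and at 8 h (29.7% of all tested genes), by -1.64 ± 0.20 (CER3) to -3.60 ± 0.21 (CER6) and by -3.08 ± 0.20 (CER2) to -7.96 ± 0.82 (CER4).

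**Figure D2:**
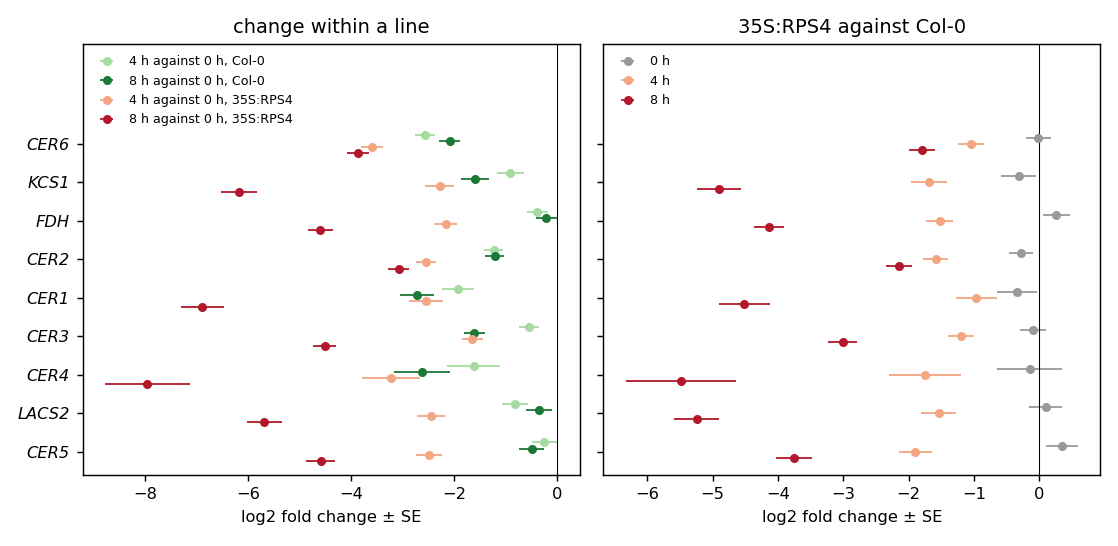
Log2 fold change ± SE (edgeR, n = 3 per group) of the 9 tested genes, on the left within each line at 4 h and 8 h against its own 0 h libraries, on the right 35S:RPS4 against Col-0 at each time. CER6, CER1, CER4 (not called) and CER2 lie well below 0 in Col-0 at 4 h while FDH and CER5 stay near it. All 9 lie lowest in 35S:RPS4 at 8 h.

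The interaction of line and shift, which asks whether the change from 0 h differed between the lines, was negative for all 9 tested genes at both times. It was called for 7 of the 9 at 4 h (10.2% of all tested genes were called lower) and for 9 at 8 h (27.3% of all tested genes). At 4 h it ran from -0.63 ± 0.43 (CER1, not called) to -2.25 ± 0.35 (CER5), and at 8 h from -1.79 ± 0.27 (CER6) to -5.34 ± 0.42 (LACS2). The calls of CER6 and KCS1 at 4 h were each lost in 8 of the 18 fits that left out a library (adjusted p up to 0.0195 and 0.0254) and that of CER3 in 4 (up to 0.0147). Only 4 of the 9 were called without 35S:RPS4 0 h replicate 1, and 4 without 35S:RPS4 4 h replicate 3. The difference between the lines grew from 4 h to 8 h for 7 of the 9 (22.9% of all tested genes were called lower), by up to -3.73 ± 1.07 (CER4) and -3.71 ± 0.42 (LACS2). The call of CER4 was lost in 9 of the 18 fits that left out a library, with an adjusted p up to 0.0245.

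The genes went together over the libraries to different degrees. Over the 18 libraries, which share their groups and time points, Pearson's r of log2 CPM was 0.99 for FDH with LACS2 and for FDH with CER5, 0.98 for CER5 with LACS2 and for CER1 with CER3, and 0.94 for CER2 with CER6. Of the 9 tested genes, CER6 was the least like the rest, at 0.77 with CER3 and 0.78 with FDH, and MAH1, near 0 throughout, gave 0.27 to 0.39 with the others. A search for the 5 genes most like CER6 covered only tested genes outside the gene lists used here that have a RefSeq symbol. Other wax and cutin genes could therefore not appear in it. Among the genes searched, these were HCD1 (AT4G14440, 0.98), listed by RefSeq also as ECI3, HKL1 (AT1G50460, 0.97), GIF2 (AT1G01160, 0.96), GAMMA-TIP (AT2G36830, 0.96) and CYP71A22 (AT3G48310, 0.96).

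Other enzymes and transporters of the wax and cutin pathways were lower in 35S:RPS4 as well. Of 33 further genes, 30 were tested, and 0 were called at 0 h, 13 were lower and 0 higher at 4 h (12.4% and 16.6% of all tested genes), and 25 were lower and 0 higher at 8 h (30.1% and 26.6%), with median log2FC of -1.08 and -3.03 at 4 h and 8 h. With the library total alone 22 were lower at 4 h, beside 21.2% of all tested genes. In Col-0 at 8 h, 2 rose and 7 fell (11.8% of all tested genes fell), with a median of -0.27. In chain elongation, 8 of 11 genes were lower at 8 h (30.1% of all tested genes). The elongase partner CER26, a relative of CER2, was at 156, 192 and 119 CPM in Col-0 and at 3.31, 2.99 and 2.41 CPM in 35S:RPS4 at 8 h, lower by -5.75 ± 0.30. CER10, the enoyl-CoA reductase of the elongase, was lower by -3.66 ± 0.35, and KCS5, a synthase close to CER6, by -3.01 ± 0.37.

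LACS1, the synthetase that activates very long chains for wax, parted from the 10 genes in Col-0. It rose there from 16.0 ± 10.08 CPM at 0 h to 83.7 ± 21.6 CPM at 4 h and 235 ± 81.5 CPM at 8 h (log2FC 3.87 ± 0.40). In 35S:RPS4 it was at 14.6 ± 3.63 CPM, 48.0 ± 18.6 CPM and 19.5 ± 0.552 CPM. The lines thus differed by -3.58 ± 0.40 at 8 h. WSD1, the wax ester synthase, fell in Col-0 by -4.96 ± 0.49 at 8 h and was lower still in 35S:RPS4 (-3.36 ± 0.67). CYTB5-B, a cytochrome b5 that serves CER1 as electron donor, was lower in 35S:RPS4 by -1.77 ± 0.26 at 8 h.

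Of 14 genes of cutin synthesis, 12 were tested, and 6 were lower in 35S:RPS4 at 4 h and 10 at 8 h, beside 12.4% and 30.1% of all tested genes. GPAT4 and GPAT8, acyltransferases that build cutin monomers, were lower at 8 h by -5.40 ± 0.42 and -5.33 ± 0.30. GPAT8 stood at 49.4, 50.4 and 35.2 CPM in Col-0 and at 0.941, 1.1 and 1.28 CPM in 35S:RPS4, and in Col-0 it rose by 1.08 ± 0.24 from 0 h. HTH (HOTHEAD), an oxidoreductase of cutin monomers, was lower by -4.46 ± 0.46. LTL1, a lipase of the GDSL family, had 898 counts in Col-0 and 1 count in 35S:RPS4 at 8 h, a ratio of 839 with a 95% binomial interval from 150 to 33181. At 0 h it had 73 counts in Col-0 and 3 in 35S:RPS4 (ratio 23.4, interval 7.71 to 116), the libraries overlapped and the difference was not called (log2FC -4.38 ± 1.65), and its mean in Col-0 went from 0.837 CPM at 0 h to 9.77 CPM at 8 h. It was uneven at 4 h, at 4.10, 0.0391 and 0.162 CPM in 35S:RPS4.

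Of 5 genes of cuticle lipid transport, 3 were lower in 35S:RPS4 at 4 h and all 5 at 8 h, beside 12.4% and 30.1% of all tested genes. ABCG11, the transporter that pairs with CER5, was at 103, 81.7 and 74.2 CPM in Col-0 and at 5.47, 6.11 and 5.78 CPM in 35S:RPS4 at 8 h, lower by -3.90 ± 0.22. LTPG1 and LTPG2, lipid transfer proteins anchored at the cell surface, were lower by -3.65 ± 0.20 and -3.50 ± 0.20. ABCG13 had 39 counts in Col-0 and 0 in 35S:RPS4 at 8 h, at least 12.1-fold lower against a floor of 3 counts over the group. Genes of suberin, a related polyester of roots and seed coats, were mostly near 0. Of 7, 3 were tested and only FAR5, a fatty acyl-CoA reductase, was called between the lines. It was higher at 4 h and 8 h, beside 16.6% and 26.6% of all tested genes. FAR5 was higher in 35S:RPS4 at 8 h, with 180 counts against 1, a ratio of 193 with an interval from 34.1 to 7650, and its 35S:RPS4 libraries were uneven, at 5.15, 1.35 and 0.603 CPM. In Col-0 its counts went from 30 at 0 h to 1 at 8 h, a fall that was not called.

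**Figure D3:**
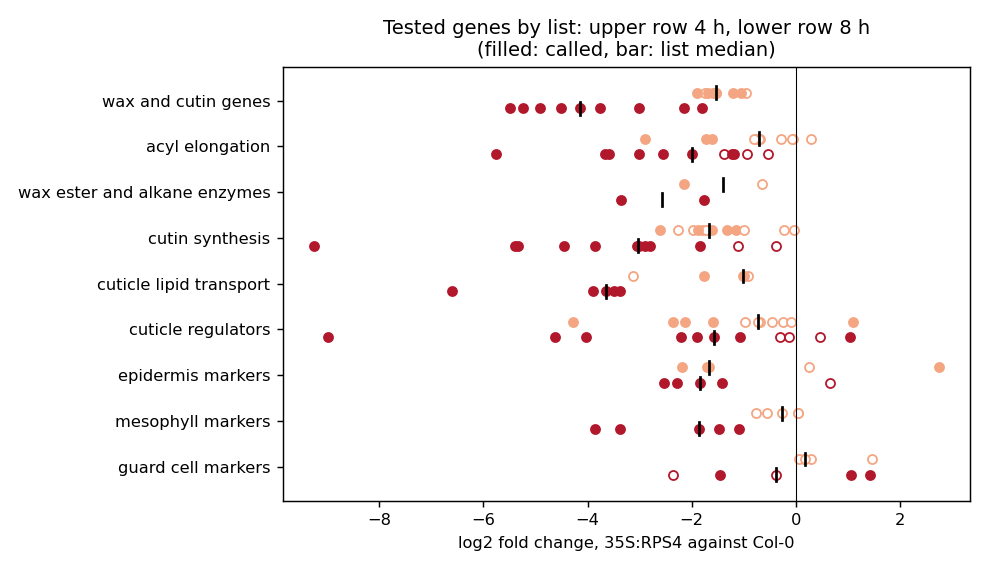
Log2 fold change of 35S:RPS4 against Col-0 for each tested gene of 9 lists, with 4 h in the upper row and 8 h in the lower row of each list, filled points for called genes and a bar at the list median. The 9 wax and cutin genes have medians of -1.54 at 4 h and -4.14 at 8 h, and the genes of cutin synthesis and of lipid transport lie at -3.03 and -3.65 at 8 h.

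Of 14 regulators of the cuticle, 11 were tested, and at 8 h 7 were lower and 1 was higher in 35S:RPS4, beside 30.1% and 26.6% of all tested genes. MYB16 and its paralogue MYB106, activators of cutin and wax genes in the epidermis, differed most. MYB16 was at 42.1, 63.9 and 58.3 CPM in Col-0 and at 4.60, 3.05 and 0.889 CPM in 35S:RPS4 at 4 h, lower by -4.29 ± 0.41. At 8 h it was at 37.5, 32.8 and 25.9 CPM in Col-0 and at 0.179, 0.0282 and 0 CPM in 35S:RPS4, which were 4, 1 and 0 counts. MYB106 was lower by -2.35 ± 0.30 at 4 h and -4.63 ± 0.37 at 8 h, and neither changed in Col-0 past the threshold at 8 h (MYB16 0.23 ± 0.35, MYB106 -0.34 ± 0.28). MYB106 overlaps a gene on the opposite strand over 1229 of its 1617 exonic bp, so its reads, like those of CER2, may not be told apart from its neighbour's.

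MYB96 and MYB94, activators of wax genes under drought, were lower in 35S:RPS4 by -1.59 ± 0.39 and -2.14 ± 0.36 at 4 h and by -1.89 ± 0.41 and -1.08 ± 0.35 at 8 h, and for MYB94 at 8 h the libraries overlapped. MYB30, which activates very long chain fatty acid genes in defence, rose in Col-0 by 3.13 ± 0.26 at 8 h. Between the lines MYB30 differed by -0.24 ± 0.23 at 4 h, not called, and by -1.57 ± 0.24 at 8 h. DEWAX, a repressor of wax genes, rose in Col-0 from 1.35, 1.03 and 0.587 CPM at 0 h to 89.0, 88.6 and 65.5 CPM at 8 h (log2FC 6.34 ± 0.54). In 35S:RPS4 at 8 h DEWAX was at 4.12, 7.55 and 3.08 CPM, lower than Col-0 by -4.03 ± 0.46. Within 35S:RPS4, DEWAX had means of 1.37, 18.2 and 4.92 CPM at 0 h, 4 h and 8 h. Those of MYB30 there were 1.93, 10.5 and 6.83 CPM. MYB96, MYB94, MYB30 and DEWAX were thus each lower in 35S:RPS4 than in Col-0 at 8 h, while DEWAX and MYB30 were above their own 0 h means. Their part in the levels of the wax genes was not tested.

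HDG1, a homeodomain factor of the epidermis that regulates cuticle genes, was lower in 35S:RPS4 by -2.21 ± 0.19 at 8 h. CER9, a ubiquitin ligase whose loss alters wax and cutin, was the regulator that was higher, at 94.6, 77.7 and 132 CPM in 35S:RPS4 at 4 h against 40.6, 40.8 and 60.4 CPM in Col-0. Its log2FC was 1.1 ± 0.24 at 4 h and 1.05 ± 0.24 at 8 h, and with the library total alone it was 0.67 and 0.81 and was not called. CER7, an exosome subunit that keeps CER3 expressed, gave -0.72 ± 0.12 at 4 h and -0.30 ± 0.12 at 8 h. SAGL1, an F-box protein that targets CER3, gave 0.46 ± 0.10, and CFL1, a partner of HDG1, gave -0.13 ± 0.24 at 8 h. These 3 were under the fold threshold at 8 h. WIN1 had 0 counts in every library, and SHN2 and SHN3, its relatives, failed the filter, with SHN3 at 40 counts in Col-0 and 0 in 35S:RPS4 at 8 h (at least 12.5-fold lower).

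**Figure D4:**
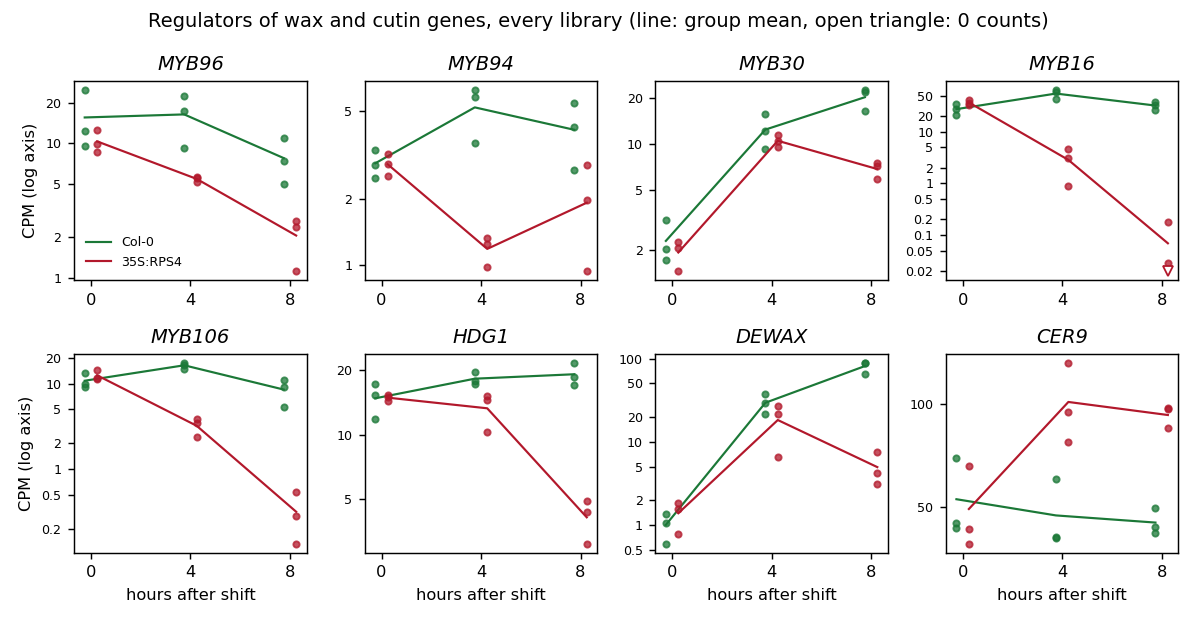
Level in CPM (log axis) of 8 regulators of wax and cutin genes in every library against hours after the shift, Col-0 in green and 35S:RPS4 in red, with lines through the group means and an open triangle for 0 counts. MYB16 and MYB106 drop in 35S:RPS4 from 4 h on, and DEWAX reaches 65.5 to 89.0 CPM in Col-0 at 8 h against 3.08 to 7.55 CPM in 35S:RPS4.

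The genes are known to be expressed in the epidermis, and the sum of 6 epidermis markers was at 189, 75.5 and 58.1 CPM (means) in 35S:RPS4 at 0 h, 4 h and 8 h. In Col-0 the sum went from 168 ± 24.9 CPM at 0 h to 232 ± 51.4 CPM at 8 h, while the wax and cutin genes went from 1325 to 562 CPM. Of the marker lists, those of mesophyll summed to 3474 to 20779 CPM over all libraries, those of epidermis to 55.7 to 262 CPM, and the root markers RHD6 and COBL9 were at or near 0. The third root marker, PYK10, was at 7.78 to 25.7 CPM in Col-0 and at 31.8 to 74.2 CPM in 35S:RPS4 at 0 h, without overlap but not called (1.62 ± 0.66). The 6 epidermis markers summed to 173 to 262 CPM in Col-0 at 8 h and to 55.7 to 60.2 CPM in 35S:RPS4. Of the 5 tested, 4 were lower at 8 h, beside 30.1% of all tested genes. ATML1 and PDF2, homeodomain factors that define the epidermis, were lower by -1.42 ± 0.19 and -2.53 ± 0.20, and the trichome factors GL2 and TRY by -1.85 ± 0.26 and -2.29 ± 0.72. TRY was near the floor in both lines at 8 h, at 0.0976 to 0.329 CPM in Col-0 and 0 to 0.113 CPM in 35S:RPS4, and these libraries overlapped. Its mean in Col-0 had been 6.67 CPM at 0 h. At 4 h, 3 of the 5 tested markers were lower and 1 was higher, beside 12.4% and 16.6% of all tested genes. The latter was CPC, a MYB factor of epidermal cell fate that was named after its values were seen, higher in 35S:RPS4 by 2.75 ± 0.53 at 4 h and by 0.66 ± 0.49 at 8 h, the latter not called. PDF1, an outer-layer marker, was near 0 in all groups. The ratio of the 10 summed genes to the summed epidermis markers was 7.94 ± 0.651 in Col-0 at 0 h, 3.54 ± 0.183 at 4 h and 2.47 ± 0.403 at 8 h. In 35S:RPS4 it was 7.0 ± 0.633, 3.06 ± 0.490 and 1.05 ± 0.15. At 8 h the ranges did not overlap (2.04 to 2.84 in Col-0, 0.880 to 1.17 in 35S:RPS4), and at 4 h they did.

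Other tissues of the leaf moved as well. The 5 mesophyll markers were all lower in 35S:RPS4 at 8 h (30.1% of all tested genes were lower). Their log2FC ran from -1.1 ± 0.24 (CA1, a carbonic anhydrase, named after its values were seen) to -3.86 ± 0.22 (LHCB1.1, of the light-harvesting complex), with LHCB2.1 at -3.38 ± 0.19, GAPA at -1.87 ± 0.15 and RBCS1A, of Rubisco, at -1.48 ± 0.18. Of the 5 guard cell markers, cells of the epidermis, 2 were higher and 1 was lower at 8 h, beside 26.6% and 30.1% of all tested genes. KAT1 was higher by 1.43 ± 0.24 and SLAC1 by 1.05 ± 0.23, and MYB60 was lower by -1.46 ± 0.24. The 5 summed to 49.3 to 72.1 CPM in 35S:RPS4 against 43.4 to 52.9 CPM in Col-0 at 8 h. The call of SLAC1 was lost with the library total alone (0.82). Of the vascular markers, IRX1 and SULTR2;2 were lower by -3.72 ± 0.91 and -2.70 ± 0.30 and 3 of the 5 were not called. With 2 of 5 lower, this list was near the share of all tested genes (30.1%). PYK10 gave 1.80 ± 0.70 at 8 h and was not called. The part of tissue composition in the differences of the wax and cutin genes was not tested.

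**Figure D5:**
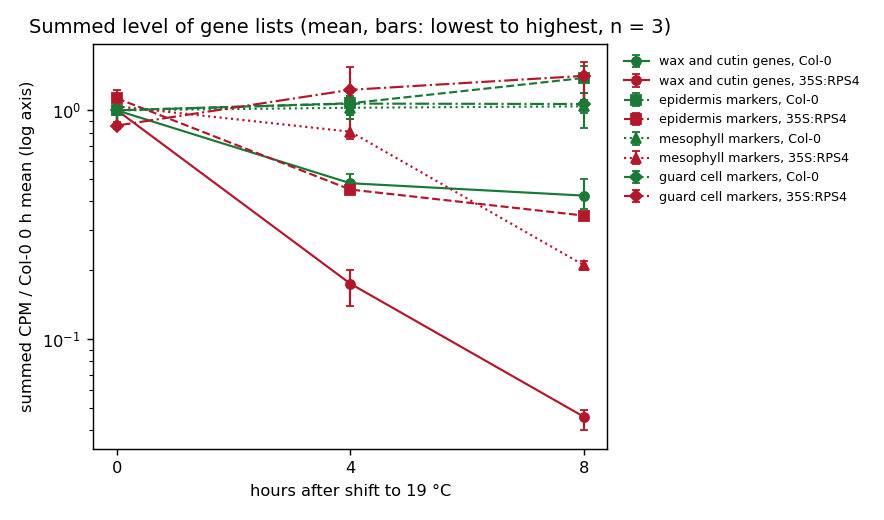
Summed CPM of the 10 wax and cutin genes and of epidermis, mesophyll and guard cell markers, divided by the Col-0 0 h mean of each list (log axis), against hours after the shift, as group means with bars from the lowest to the highest of 3 libraries. The wax and cutin genes go from 1328 to 60.8 CPM in 35S:RPS4 over 8 h, and the epidermis markers from 189 to 58.1 CPM.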

How the data were processed

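Per the labels, leaf RNA was depleted of ribosomal RNA, reverse transcribed with oligo-dT primers and sequenced as read pairs. The authors deposited 1 table of counts per gene. Per the submitters' processing notes, reads were checked with FastQC 0.11.2, aligned to TAIR10 with TopHat2 2.0.10 and counted with HTSeq. The version of HTSeq and its strand setting are not given in the sources used here, so antisense reads may be counted with a gene or lost. Besides CER2 and MYB106, the described genes that overlap opposite-strand genes include ABCG11 (1025 bp), CYTB5-B (926 bp) and SLAC1 (808 bp). Every column had a sample (0 did not). Besides 32678 genes, the table has 5 summary lines, which were left out of library sizes and tests; reads outside genes took 48.5% to 49.2% of the total, ambiguous reads 0.252% to 0.369% and multiply placed reads 1.96% to 2.85%.

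The tools were edgeR 4.0.16, DESeq2 1.42.0 and limma 3.58.1 under R 4.3.3, with matplotlib 3.10.9 under Python 3.11.15 for plots. The filterByExpr function kept 20023 genes. Library sizes were scaled by TMM (factors 0.797 to 1.15, and 0.797 to 0.838 in 35S:RPS4 at 4 h), and edgeR's quasi-likelihood fit over the 18 libraries gave each group its own mean. The 10 comparisons were the lines at each time, each line at 4 h and 8 h against its own 0 h, the interactions and the change of the line effect from 4 h to 8 h. The fits were tested on simulated data. RPKM used the summed exon length in TAIR10.1. Correlations between genes used the log2 of CPM plus 0.5 CPM, which flattens low levels. Those between libraries used log2 CPM with a prior count of 0.5. The replicate numbers were not taken to pair the samples. Same-numbered libraries correlated at -0.185 to 0.225 in their deviations from group means. Between the lines these correlations were -0.119 to -0.0154 at 0 h, 0.00253 to 0.172 at 4 h and 0.0193 to 0.181 at 8 h. They were thus weak but above 0 at the shifted times.

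Alternatives were RLE scaling, the library total alone, no filter, at least 1 CPM in 3 libraries, DESeq2, limma voom, only the groups compared, a replicate block, and leaving out each of the 18 libraries. The 10 genes were given by name, and they and the 13 gene lists (89 entries) were chosen with earlier results of these data known. Named were all 10, all cuticle regulators, and from every other list up to 4 genes called between the lines at 4 h or 8 h with the largest log2FC at 8 h, or else the 2 with the highest CPM.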

Additional observations from a re-analysis of the deposited data

Results flagged for a closer look

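The change after the shift differed between the lines, by the interaction term of edgeR's quasi-likelihood model (Benjamini-Hochberg adjusted p under 0.01, n = 3 per group), for 7 wax and cutin genes at 4 h. The extra log2 change in 35S:RPS4 was -2.25 for CER5, -1.78 for FDH, -1.64 for LACS2, -1.37 for KCS1, -1.31 for CER2, -1.10 for CER3 and -1.03 for CER6. At 8 h it differed for all 9 tested genes. The extra change was -5.34 for both LACS2 and CER4, -4.60 for KCS1, -4.40 for FDH, -4.18 for CER1, -4.11 for CER5, -2.91 for CER3, -1.87 for CER2 and -1.79 for CER6. The values at 4 h and 8 h share the 0 h libraries of both lines. CER5, FDH and LACS2, the genes that did not pass the test in Col-0 at either time, had the largest of the called values at 4 h. The value is the change in 35S:RPS4 minus that in Col-0, so little change in Col-0 enlarges it by construction. Within 35S:RPS4 at 4 h, CER5, FDH and LACS2 changed by -2.49, -2.16 and -2.45. Over the 9 genes that change ran from -1.64 (CER3) to -3.60 (CER6). The value of CER4 at 8 h rests on 8 counts in the 3 shifted 35S:RPS4 libraries.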

How the results depend on the processing

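Of the 9 tested wax and cutin genes, the numbers called stayed within 1.5 times the main count under RLE scaling, the library total, both other filters, DESeq2, limma voom, only the groups compared and the replicate block. With the replicate block, 8 of the 9 were called lower in 35S:RPS4 at 4 h and 9 at 8 h, and 6 rather than 7 for the change of the line effect, where CER4 was lost (adjusted p = 0.011). The numbers were not taken to pair the samples, since 0 of 15 pairs of groups had all same-numbered correlations over 0.1. Leaving out 1 library gave 0 to 0 calls for 35S:RPS4 against Col-0 at 0 h, 6 to 9 at 4 h and 9 to 9 at 8 h, 3 to 5 in Col-0 at 4 h and 6 to 6 at 8 h, 9 to 9 in 35S:RPS4 at 4 h and at 8 h, 4 to 7 for the interaction at 4 h and 9 to 9 at 8 h, and 6 to 7 for the change of the line effect.

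Sign changes occurred only at 0 h, in values that were not called: CER4 gave 0.26 with limma voom and 0.054 with the replicate block, and CER6 gave 0.012 with no filter and 0.0039 with the replicate block. Without 1 library, log2FC at 0 h ran from -0.25 to 0.014 for CER3, -0.60 to 0.83 for CER4, -0.17 to 0.16 for CER6 and -0.16 to 0.27 for LACS2. At 4 h CER1 was called with the library total (-1.38), limma voom (-1.07) and the replicate block (-1.03), and CER4 with the library total (-2.17), no filter (-1.80), DESeq2 (-1.77) and only the groups compared (-1.75). With limma voom the calls of CER4 were lost at 8 h for 35S:RPS4 against Col-0 (adjusted p = 0.0176), for the interaction (0.0181) and for the change from 4 h to 8 h (0.167). With only the groups compared, the calls of CER6 in the interaction at 4 h (adjusted p = 0.0151) and of CER4 in Col-0 at 8 h (0.0118) were lost, and the latter count was 5 rather than 6. With DESeq2, CER4 was called in Col-0 at 4 h (-1.64), a count of 4. Over all tested genes, DESeq2 called 75 at 0 h against 2, and the library total alone called 4237 lower at 4 h against 2490. The causes were not tested. Depth limits CER4 in 35S:RPS4 at 8 h and MAH1 throughout.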
